A study of Mus musculus with 12 samples.

Results

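This comparison set effective responders to wheel running (SES, mice 9, 10 and 12) against ineffective responders (SER, mice 6, 19 and 20), 6 of the 12 mice whose ventral hippocampus was sequenced. All 6 were stress-susceptible, had been restrained and had run, so the labels tell them apart by the behavioural outcome and the mouse number. The series' design text says that a panel of behavioural readings, covering despair, anhedonia, avoidance of open space and compulsive acts, placed each running mouse in SES or SER. Group membership therefore came from behaviour and not from gene expression. The mice were wild-type C57BL/6J males, 8 weeks old and naive at the start, restrained in tubes for 2 hours a day on 14 days. Running lasted 14 days in the sample titles and 4 weeks in the protocol, and which holds cannot be settled from these sources. The 6 other mice were 3 unstressed controls (C) and 3 stress-susceptible mice labelled with restraint alone (SS), whose levels are given beside some results without a test. Libraries came from 1.3 µg of total RNA by a strand-keeping kit.

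The ventral hippocampus projects to the amygdala, prefrontal cortex and hypothalamus and takes part in anxiety-like and depression-like behaviour. It has many glucocorticoid and mineralocorticoid receptors, through which corticosterone acts on its neurons and glia. Running in rodents is known to raise Bdnf, blood vessel growth and the birth of granule cells in the dentate gyrus, and mice of an inbred strain still differ from each other in how stress and exercise affect them.

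The SES libraries held 13378597 to 15707516 counts and the SER libraries 9323607 to 12714883, so every SES library was deeper than every SER library and depth cannot be told apart from group. Across the 14548 genes tested, log2 CPM (counts scaled to library size) of 2 SES mice correlated at 0.9852 to 0.9874. The same values were 0.9829 to 0.9855 for 2 SER mice and 0.9756 to 0.9881 for an SES and an SER mouse. These correlations are across genes, which are not independent replicates. No pair of libraries was alike within sampling noise. The median SD of log2 CPM over 3 mice was 0.142 in SES, 0.162 in SER, 0.192 in SS and 0.154 in C. Markers of the labelled tissue were present in all 6 mice, with 853 to 1207 CPM summed over 16 CA1 and subiculum genes and 863 to 1093 CPM over 16 dentate granule cell genes. Among the SS mice, mouse 18 stood apart in choroid plexus and ependyma RNA (6889 CPM summed over 20 markers, against 106 and 112 in mice 19 and 21). Among the C mice, mouse 2 did so too (4766 CPM, against 151 and 234 in mice 8 and 12), and both libraries enter the estimate of the spread.

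No gene passed the test between effective and ineffective responders. In edgeR's quasi-likelihood test with Benjamini-Hochberg adjustment over all genes, 0 of 14548 passed an adjusted p of 0.05 (0%), and the smallest adjusted p was 0.999. An unadjusted p under 0.05 was reached by 534 genes (3.67%). Of these, 249 were higher in SES (1.71% of the genes tested) and 285 lower (1.96%). DESeq2's Wald test called 1 gene and limma-voom 0. All 3 SES mice lay above all 3 SER mice for 778 genes (5.35%) and below them for 799 (5.49%). The log2 fold change, SES minus SER, was above 0 for 7305 genes and below 0 for 7240, with a median of 9e-04. An adjusted p of this size does not show that the groups were alike. The intervals show which differences remain possible.

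For most genes above a low level, the 95% interval of the difference lay inside a 2-fold change either way. These intervals are not adjusted for the number of genes. They lay inside 2-fold for 12245 genes (84.2%) and inside 1.5-fold for 9145 (62.9%). For the 2351 genes over 100 CPM the shares were 99.4% and 94.5%, with a median half-width of 0.23 log2 units. Among the 7538 genes at 10 to 100 CPM they were 97.7% and 83%. At 1 to 10 CPM, 63.5% of 3984 genes had an interval inside 2-fold. Under 1 CPM only 1.8% of 675 genes did, with a median half-width of 1.18, so a 2-fold difference in most such genes was not detectable at this depth and number of mice.

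**Figure D1:**
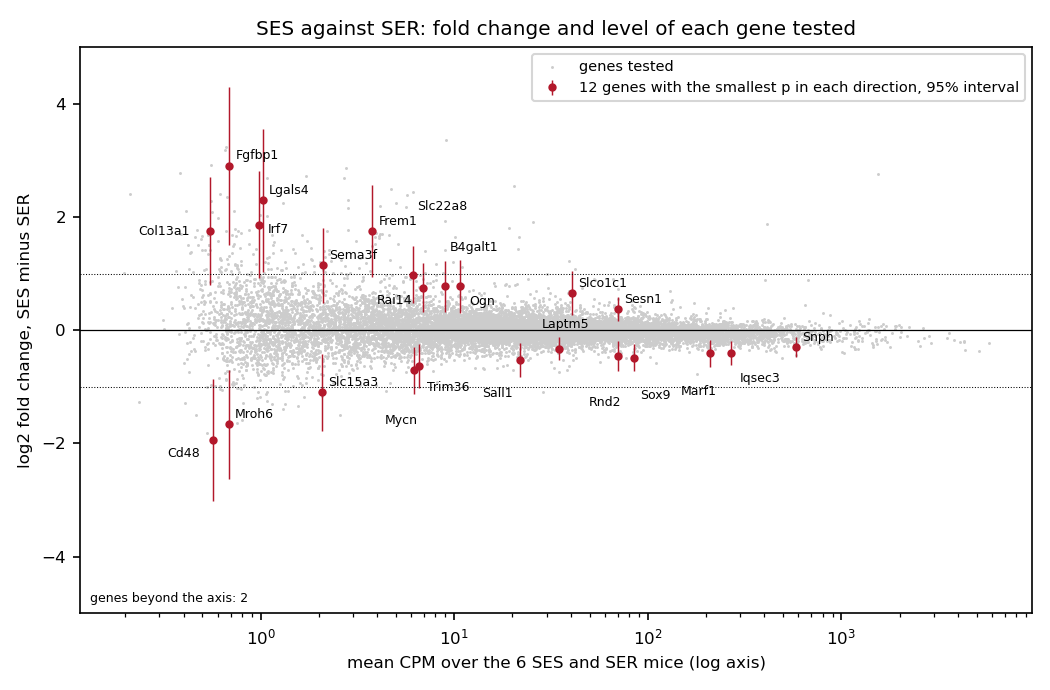
Log2 fold change of SES minus SER (vertical axis) against the mean CPM of the 6 mice (log axis) for 14548 genes, with the 12 genes of smallest p in each direction in red with their 95% intervals and dotted lines at 2-fold. The cloud widens toward low CPM, and 2 genes lie beyond the vertical axis.

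Among the genes with a lower mean in effective responders, Sox9, Sall1, Iqsec3 and Snph were near the top by p, and none passed the test. Sox9, a transcription factor that marks astrocytes (mm10, chromosome 11, 112782210 to 112787757), had the smallest p in this direction. It had 67.3, 71.4 and 73.1 CPM in SES mice 9, 10 and 12 and 101, 95.9 and 99.5 CPM in SER mice 6, 19 and 20. The SER mice were all high and close together, and the groups did not overlap. The means were 70.6 ± 2.97 and 98.7 ± 2.50 CPM (SD, n = 3), a log2 fold change of −0.48 ± 0.11 (SE; 95% interval −0.72 to −0.25). In SS mice 18, 19 and 21 Sox9 had 59.9, 59.9 and 51.5 CPM, and 50.1 to 68.6 CPM in C, so the SER mice were above each of the 9 other mice and the SES mice overlapped C. From here on, values per mouse keep the order 9, 10 and 12 for SES and 6, 19 and 20 for SER.

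Sall1 of the microglia list and the immune cell gene Laptm5 leaned the same way. Sall1, a transcription factor of microglial identity (chromosome 8, 89027242 to 89044162), had 20.1, 17.8 and 15.7 CPM in SES and 25.9, 22.5 and 28.6 in SER, a log2 fold change of −0.52 ± 0.14 (−0.82 to −0.22). Laptm5, a lysosomal membrane protein of immune cells (chromosome 4, 130912890 to 130936148), had 29.98, 32.7 and 29.6 CPM in SES and 36.9, 40.1 and 39.0 in SER (−0.33 ± 0.09). For both genes every SER mouse was above every SES mouse, as for 5.49% of all genes. Genes picked by small p, as those named above and below, tend to be apart, so this is no separate support. Cd48, a surface receptor of blood-derived cells, had a log2 fold change of −1.94 ± 0.50 but lay under 1 CPM in all 6 mice. The lysosomal peptide and histidine transporter Slc15a3 had 0.959, 1.61 and 1.37 CPM in SES and 2.08, 3.74 and 2.64 in SER (−1.10 ± 0.31). Complement component C3, the central protein of the complement cascade (chromosome 17, 57203967 to 57228136), had 1.34, 1.48 and 1.22 CPM in SES and 4.71, 3.30 and 3.41 in SER. Its 3 SER values stood above the 9 other mice, of which the highest was SS mouse 18 at 1.84, and its log2 fold change was −1.50 ± 0.56 (−2.71 to −0.28).

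Iqsec3, Snph and Rnd2 are genes of neurons. Iqsec3, an exchange factor for Arf GTPases at inhibitory synapses (chromosome 6, 121372927 to 121473738), had 248, 211 and 236 CPM in SES and 303, 277 and 338 in SER (−0.40 ± 0.10). Snph, the syntaphilin gene whose product anchors mitochondria in axons (chromosome 2, 151590549 to 151632607), had 532, 484 and 547 CPM in SES and 605, 656 and 660 in SER (−0.30 ± 0.08). Rnd2, a GTPase of neuronal migration, had 61.4, 52.4 and 64.1 CPM in SES and 76.9, 87.5 and 78.7 in SER (−0.45 ± 0.12). None of these 3 genes overlapped between groups. In SS, Iqsec3 had 222 to 228 CPM, within the SES range, Rnd2 had 57.8 to 73.6, which overlapped it, and Snph had 440 to 480, below both running groups. Marf1, a regulator of RNA stability (−0.41 ± 0.11), the MYC-family factor Mycn (−0.70 ± 0.19), the ubiquitin ligase Trim36 (−0.63 ± 0.18) and Mroh6 (−1.66 ± 0.45) completed the 12. Mroh6 had only 4, 3 and 7 counts in SES mice. The leukaemia inhibitory factor gene Lif (−1.07 ± 0.46), Rgs22 (−1.31 ± 0.54) and Nkpd1 (−1.12 ± 0.47) were the other genes with the largest differences among those of at least 1 CPM with groups that did not overlap.

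Frem1, Fgfbp1, Irf7 and Slc22a8 had the smallest p among genes with a higher mean in effective responders, again short of the threshold. Frem1, a basement membrane protein (chromosome 4, 82897920 to 83052506), had the smallest p of all genes. It had 3.58, 8.12 and 5.85 CPM in SES and 1.68, 2.44 and 0.989 in SER, a log2 fold change of 1.76 ± 0.38 (0.94 to 2.57). The lowest SES mouse was above the highest SER mouse. In SS it had 5.17 to 7.06 CPM, within the SES range, and in C 1.52 to 3.10.

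Slc22a8, the organic anion transporter OAT3 of the blood-brain barrier and choroid plexus (chromosome 19, 8591254 to 8611835), had 8.37, 9.06 and 6.99 CPM in SES and 3.67, 4.44 and 4.29 in SER (0.98 ± 0.23; 0.48 to 1.48). All 3 SER mice were below each of the 9 other mice, since SS and C spanned 6.21 to 10.5 CPM. Slco1c1, the thyroid hormone transporter of the same barriers (chromosome 6, 141524354 to 141570177), had 51.1, 58.2 and 39.5 CPM in SES and 37.3, 29.1 and 28.0 in SER (0.65 ± 0.18). The groups were apart by the gap between SES mouse 12 and SER mouse 6. Irf7, a transcription factor of the interferon response (chromosome 7, 141263183 to 141266499), had 1.15, 2.15 and 1.37 CPM in SES and 0.399, 0.522 and 0.330 in SER (1.86 ± 0.44). Its SER counts were 5, 6 and 3, close to the limit of 3 counts that a value of 0 allows. Fgfbp1, a carrier protein for fibroblast growth factors, had counts of 22, 14 and 17 in SES mice and of 1, 1 and 3 in SER mice (2.90 ± 0.65).

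Sesn1, a sestrin that restrains mTORC1 signalling (chromosome 10, 41810574 to 41908436), had 82.6, 73.5 and 80.0 CPM in SES and 66.9, 53.4 and 62.1 in SER (0.37 ± 0.10; 0.16 to 0.59). Every SES mouse was above every SS and C mouse, which had 62.0 to 71.1 CPM. Ogn, the proteoglycan osteoglycin of fibroblasts (chromosome 13, 49608015 to 49624501), had 18.9, 10.6 and 11.2 CPM in SES and 6.94, 8.00 and 9.01 in SER (0.77 ± 0.21). The others of the 12 were the transmembrane collagen Col13a1 (1.76 ± 0.44), the galectin Lgals4 (2.30 ± 0.59), the actin-associated protein Rai14 (0.75 ± 0.20), the galactosyltransferase B4galt1 (0.77 ± 0.21) and the guidance factor Sema3f (1.15 ± 0.31). SER counts were 3, 2 and 3 for Col13a1 and 2, 4 and 5 for Lgals4, close to the limit of 3 counts. Among genes of at least 1 CPM with groups apart and an unadjusted p under 0.05, the largest in size were Kcnj13, a potassium channel of choroid plexus epithelium (3.35 ± 1.54), Fap, fibroblast activation protein (2.69 ± 1.05), Lgals4, the tight junction gene Cldn1 (2.24 ± 0.80) and the myosin Myo5c (2.02 ± 0.75). Of the 14548 genes tested, 33 that met these limits differed by more than 1 log2 unit and were higher in SES, and 5 were lower. At any size, level or p, 778 genes were apart with SES higher (5.35%) and 799 with SES lower (5.49%). SER counts were low for some of the largest, with 2, 1 and 6 for Fap and 2, 9 and 3 for Myo5c.

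**Figure D2:**
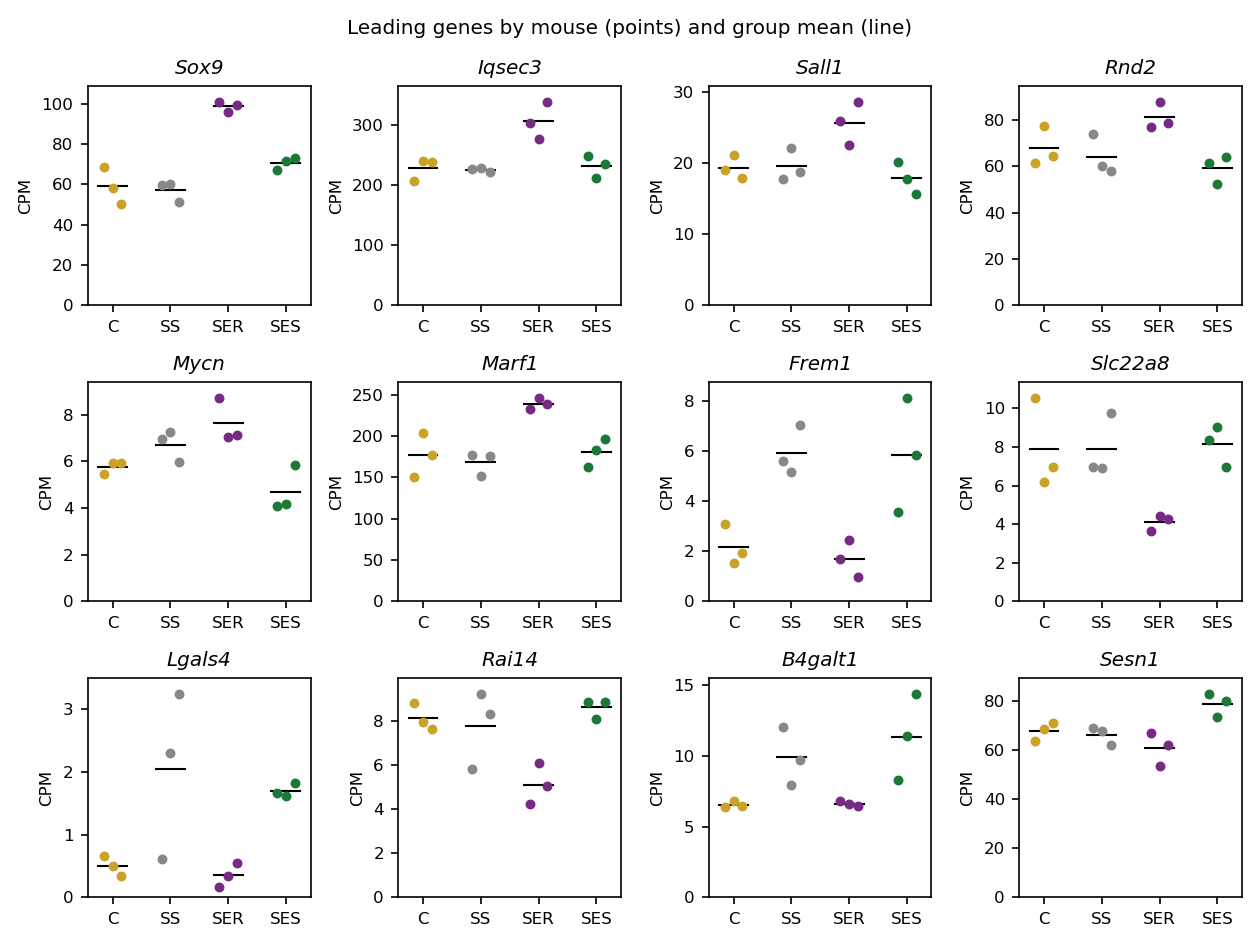
CPM of each mouse (points) and group mean (line) in C, SS, SER and SES for 6 of the 12 lower and 6 of the 12 higher genes, taken by p among genes of at least 5 or 1 CPM. Sox9 had 95.9 to 101 CPM in SER against 67.3 to 73.1 in SES, and Slc22a8 3.67 to 4.44 against 6.99 to 9.06.

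Astrocyte and microglia markers leaned lower in effective than in ineffective responders as lists. Astrocytes clear glutamate and potassium from the synaptic space, and microglia are the resident macrophages of the brain. Of 20 astrocyte markers, 0 were called, 8 had an unadjusted p under 0.05 with a lower level in SES and 0 with a higher one, against 1.96% and 1.71% of all genes. The log2 fold change was below 0 for 18 of the 20, with a median of −0.22 beside 9e-04 over all genes. Of 18 microglia markers, 0 were called, 5 had such a p with a lower level in SES, and all 18 were below 0, with a median of −0.24. In bulk tissue fewer cells of a type and less RNA per cell cannot be told apart. Genes of 1 cell type share their cells, so the members of a list are not independent observations.

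Among the astrocyte markers, Slc1a2, the main glutamate transporter, had 4697, 3710 and 5002 CPM in SES and 5899, 5129 and 6357 in SER (−0.37 ± 0.12; −0.63 to −0.12). Slc4a4, a sodium bicarbonate cotransporter, had 192, 168 and 191 CPM in SES and 243, 203 and 238 in SER (−0.31 ± 0.10). Both genes had every SES mouse below every SER mouse, as did the gap junction gene Gja1 (−0.23 ± 0.08), Mlc1 (−0.22 ± 0.09) and the glycolytic enzyme Aldoc (−0.25 ± 0.10). Kcnj10, the potassium channel Kir4.1, overlapped between groups (−0.34 ± 0.14), and so did Gfap, the intermediate filament gene of reactive astrocytes (−0.30 ± 0.24; −0.82 to 0.21). Summed over the 20 markers, SES mice had 13150, 11200 and 13210 CPM and SER mice 15620, 13830 and 15290. The same sum was 9785 to 11590 CPM in SS and 10290 to 11280 in C. SER was highest, SES mice 9 and 12 came next, and SES mouse 10 lay within the range of SS.

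Csf1r, the receptor on which microglia depend for survival, had 97.6, 89.9 and 81.4 CPM in SES and 109, 105 and 113 in SER (−0.28 ± 0.10). Cx3cr1, the fractalkine receptor, had 57.7, 60.8 and 37.7 CPM in SES and 66.6, 75.9 and 73.8 in SER (−0.47 ± 0.18). Gpr34 was apart in the same direction (−0.49 ± 0.20), whereas the purinergic receptor P2ry12 overlapped (−0.27 ± 0.19). The microglia sum was 609 to 702 CPM in SS and 709 to 735 in C. It was 739, 725 and 605 CPM in SES and 810, 788 and 801 in SER. Each SER mouse stood above the 9 other mice, and SES mouse 12 was lowest. Without that mouse the list median was −0.12, a change of over 1.5 times, and 1 member had an unadjusted p under 0.05, while without SES mouse 9 there were 9 and without SER mouse 20 there were 3. For astrocytes the median ranged from −0.27 to −0.16 over the edgeR fits of genes with other scalings, filters or fewer libraries, and the number of members was 3 without SES mouse 10 and 5 without SER mouse 6. Neither median changed direction in these fits, and list medians were not computed with DESeq2's Wald test, limma-voom or transcripts.

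Genes of protein synthesis and of the postsynaptic scaffold leaned the same way. Of 61 cytosolic ribosomal protein genes, 0 were called, 60 had a log2 fold change below 0 and 19 had every SES mouse below every SER mouse, against 5.49% of all genes. An unadjusted p under 0.05 was seen for 6, all lower, against 1.96% of all genes, and the median was −0.17. Rps14, a small subunit protein, had 668, 713 and 706 CPM in SES and 782, 988 and 874 in SER (−0.34 ± 0.13). Summed over the list, SES mice had 23870, 22240 and 22270 CPM and SER mice 23280, 28070 and 25440. The sums overlapped, and SER mouse 19 stood highest of these 6 mice. The sum was 18610 to 22610 CPM in SS and 23770 to 29130 in C. C mice 8 and 12 (29130 and 29000) were above every SER mouse, so SER did not stand out from the other groups on this list. Without SER mouse 19 the median was −0.09 and without SER mouse 6 it was −0.23. The number with an unadjusted p under 0.05 was 0 and 16 in these fits and 2 or 3 without any other single SES or SER mouse. It was 12 without SS mouse 18 and 23 without SS mouse 18 and C mouse 2. Over all genes, in either direction, 7% and 7.64% had such a p in the last 2 fits, against 3.67% as reported. Ribosomal protein genes have many near-identical pseudogenes, so how their reads were divided is uncertain.

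Postsynaptic density scaffolds hold glutamate receptors and kinases at excitatory synapses. Of 26 such genes, 0 were called and 22 were below 0 (median −0.16). An unadjusted p under 0.05 was reached by 4 in the lower direction and 1 in the higher, against 1.96% and 1.71% of all genes. Camk2a, the kinase central to synaptic potentiation, had 5379, 5017 and 5535 CPM in SES and 6172, 6175 and 6328 in SER (−0.23 ± 0.09). Shank1 had 445, 405 and 370 CPM in SES and 581, 503 and 639 in SER (−0.50 ± 0.19). Both were apart between groups, and Dlg4, the PSD-95 gene, also was (−0.17 ± 0.09). Sipa1l1 overlapped (−0.30 ± 0.11), and Baiap2, an actin regulator of spines, went the other way, with 280, 373 and 280 CPM in SES and 266, 245 and 200 in SER (0.39 ± 0.15). The list sum was 14180, 14030 and 14550 CPM in SES and 16160, 15690 and 16310 in SER. It was 12210 to 13420 CPM in SS and 11320 to 11490 in C. By this sum, of which Camk2a was a large part, the order was SER, SES, SS and C with no overlap of ranges. The median log2 difference of the list's genes from their mean over the 6 mice weighs each gene alike. By that measure SER mouse 19 (−0.045) lay beside SES mice 9, 10 and 12 (−0.046, −0.065 and −0.055). SER mice 6 and 20 had 0.092 and 0.127. The median ranged from −0.20 to −0.13 over the same fits, and the number of lower members with an unadjusted p under 0.05 was 0 without SER mouse 20, 1 without SES mouse 10 and 7 without SER mouse 19.

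**Figure D3:**
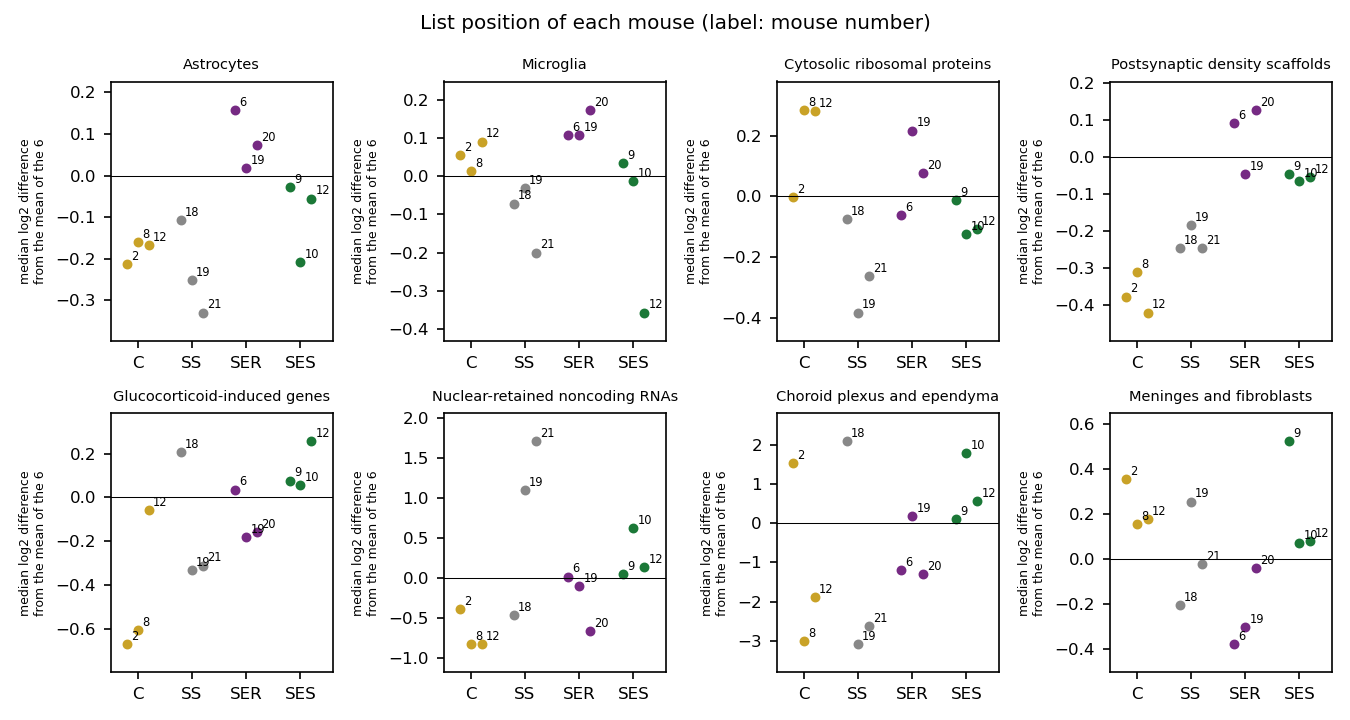
Position of each mouse on 8 gene lists, as the median log2 difference of the list's genes from their mean over the 6 SES and SER mice, with the mouse number beside each point. Astrocyte and microglia positions were higher in all 3 SER mice than in all 3 SES mice. SES mouse 10 stood highest of these 6 on the choroid plexus and ependyma list and SES mouse 12 lowest on the microglia list.

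Most genes induced by glucocorticoids had a higher mean in effective responders, while their summed level overlapped between groups. These genes are switched on by the corticosterone-bound receptor and are often read as a sign of recent hormone exposure. Of 25 such genes, 0 were called, 21 were above 0 with a median of 0.15, and 6 had every SES mouse above every SER mouse, against 5.35% of all genes. Summed over the list, SES mice had 3736, 3547 and 4072 CPM and SER mice 3865, 3810 and 3493, so the sums overlapped. Cdkn1a, the cell cycle inhibitor p21, had 32.8, 34.8 and 53.6 CPM in SES and 18.3, 22.9 and 19.5 in SER (1.00 ± 0.39; 0.15 to 1.84). Nfkbia, an inhibitor of NF-kappaB, had 35.3, 38.1 and 45.7 CPM in SES and 25.1, 32 and 27.4 in SER (0.50 ± 0.20), and Arrdc2 had a log2 fold change of 0.81 ± 0.37. These were the 3 members with an unadjusted p under 0.05, all higher in SES, against 1.71% of all genes. Sgk1, a kinase induced by stress hormones, had 139, 177 and 156 CPM in SES and 119, 92.9 and 116 in SER (0.52 ± 0.31), apart but with an interval that reached −0.14.

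Not all genes of this list leaned alike. Fkbp5, the receptor cochaperone, had 117, 111 and 156 CPM in SES and 113, 124 and 110 in SER (0.14 ± 0.22), and Fam107a, an actin-associated stress-responsive gene, was lower in mean (−0.19 ± 0.12). SES mouse 12 had the highest Cdkn1a, Nfkbia and Fkbp5 of the 6 mice. Without it the list median was 0.06, and without SES mouse 10 it was 0.26. An unadjusted p under 0.05 was reached by 0 members without SES mouse 12 or SER mouse 20, by 2 without SES mouse 9 or SER mouse 19, and by 6 without SS mouse 18. In that last fit 7% of all genes had such a p, against 3.67% as reported. The receptors themselves leaned lower. Nr3c1, the glucocorticoid receptor, had 108, 91.5 and 89.5 CPM in SES and 117, 92.3 and 130 in SER (−0.23 ± 0.14). Nr3c2, the mineralocorticoid receptor, had 82.1, 74.8 and 93.2 CPM in SES and 107, 94.1 and 117 in SER (−0.35 ± 0.16), with groups apart by less than 1 CPM. Of 9 corticosteroid and CRH receptor genes, 0 had an unadjusted p under 0.05 in either direction, and the median was 0.02.

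Growth factor genes commonly tied to running had overlapping values. Bdnf had 50.2, 57.3 and 52.7 CPM in SES and 53.2, 51.0 and 51.0 in SER, overlapping values with a log2 fold change of 0.05 ± 0.10. Its interval of −0.17 to 0.26 lies inside a 1.5-fold change in either direction. Its receptor gene Ntrk2 had 778, 571 and 738 CPM in SES and 780, 811 and 888 in SER (−0.25 ± 0.11), where SES mouse 10 stood low and the groups were apart by the gap between SES mouse 9 and SER mouse 6. Igf1 (0.14 ± 0.13; −0.15 to 0.43) and Vegfa (0.00 ± 0.19; −0.42 to 0.41), growth factors of neurons and vessels, also overlapped. Of 23 neurotrophin and growth factor genes, Ntrk2 was the only one with an unadjusted p under 0.05, and the median was 0.00. Among 23 exercise-linked regulators none had such a p (median 0.04, and −0.02 without SES mouse 10), and Lepr, the leptin receptor gene, had the largest value, 1.23 ± 0.58 (−0.01 to 2.47). Lepr had 3.71, 5.03 and 2.28 CPM in SES and 0.798, 2.87 and 0.989 in SER, so the groups overlapped. It had 4.29 CPM in SS mouse 18 and 4.70 in C mouse 2, the libraries high in choroid plexus RNA.

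Immediate early genes, which report recent neuronal activity, spread widely among mice. Fos had 13.8, 13.0 and 17.4 CPM in SES and 18.3, 13.8 and 36.0 in SER, where mouse 20 stood high (−0.61 ± 0.41; −1.5 to 0.27). Arc had 71.0, 85.1 and 108 CPM in SES and 144, 72.7 and 177 in SER (−0.58 ± 0.31). Egr1 (0.19 ± 0.22) and Npas4 (−0.03 ± 0.36) had means on either side of 0, and all 4 genes overlapped between groups. Of 28 immediate early genes, 0 had an unadjusted p under 0.05, 17 were below 0 and the median was −0.03. It was 0.03 without SER mouse 6 or SER mouse 20 and 0.01 without SES mouse 9. The CA1 transcription factor Pou3f1 had 104, 108 and 94.5 CPM in SES and 119, 106 and 115.1 in SER (−0.15 ± 0.12).

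RNA of tissue at the border of the hippocampus varied strongly between mice and was higher in mean in effective responders. The choroid plexus is the epithelium in the ventricle beside the ventral hippocampus that makes cerebrospinal fluid. Its markers were listed together with those of the ependyma. Summed over these 20 choroid plexus and ependyma markers, SES mice had 1382, 6258 and 3094 CPM and SER mice 261, 1519 and 254. SER mouse 19 thus overlapped SES mouse 9. Ttr, the transthyretin gene and main product of the choroid plexus epithelium, had 834, 4711 and 2491 CPM in SES and 37.0, 1093 and 63.7 in SER (2.75 ± 2.24; −2.08 to 7.58). Of the 20 markers 17 were above 0 and 3 below it (lowest −0.63). The median was 1.76, which ranged from 1.15 without SES mouse 10 to 2.42 without SER mouse 19. One, Kcnj13, had an unadjusted p under 0.05, and Steap1 was the only marker at 0 in any of the 6 mice (SER mouse 20). In the fit of the 6 libraries alone 16 markers had such a p, and without SS mouse 18 there were 7. Without SER mouse 6, SER mouse 20, SES mouse 10 or SES mouse 12 there were 0. Over all genes 6.3% had such a p in the fit of 6 libraries and 7% without SS mouse 18, against 3.67% as reported.

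Markers of meninges and fibroblasts had 12 of 14 genes above 0 with a median of 0.41. An unadjusted p under 0.05 was reached by 4, all higher in SES, against 1.71% of all genes, namely Ogn, Islr (0.48 ± 0.18), Crabp2 (1.20 ± 0.50) and Col3a1 (0.90 ± 0.39). Their sum was 338, 253 and 282 CPM in SES and 184, 264 and 270 in SER, with SER mouse 6 low. Endothelial and mural markers had 15 of 20 above 0 with a median of 0.20, led by Ly6c1 (0.78 ± 0.29) and the transporter Slco1a4 (0.52 ± 0.22), the 2 with an unadjusted p under 0.05. Without SES mouse 9 the meningeal median was 0.28 with 1 such member, and the endothelial median 0.13 with 0. Their sum was 321, 292 and 220 CPM in SES and 244, 240 and 228 in SER, where SES mouse 12 was the lowest of the 6. The part of these tissues in the values of Slc22a8, Slco1c1, Ogn, Cldn1, Fap, Kcnj13 and Lepr above, in that of Cd59a below, and in the lower astrocyte and microglia levels, was not tested.

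Noncoding RNAs that stay in the nucleus, listed as a measure of quality and not as a pathway, had higher means in SES as a list. Summed over the list, SES mice had 3150, 4219 and 3950 CPM and SER mice 3143, 3094 and 2325. SES mouse 9 and SER mouse 6 thus nearly met, and the SS mice spanned 1502 to 12320 CPM. Neat1, the scaffold of paraspeckles, had 63.2, 75.7 and 66.6 CPM in SES and 49.8, 32 and 27.8 in SER (0.90 ± 0.28; 0.30 to 1.5). Meg3, an imprinted noncoding RNA, had 772, 1162 and 695 CPM in SES and 565, 517 and 345 in SER (0.88 ± 0.61). Both were among the 5 of 11 genes of this list with every SES mouse above every SER mouse, against 5.35% of all genes, and the list median was 0.69. An unadjusted p under 0.05 was reached by 1 member, Neat1, and by 6 without SS mouse 18. Over all genes the share with such a p was 3.67% as reported and 7% without SS mouse 18. Malat1 overlapped, with 1084, 1385 and 1992 CPM in SES and 1415, 1489 and 995 in SER (0.19 ± 0.55). The SS mice had both the lowest and the highest Malat1 of the stressed mice (511, 3813 and 5270 CPM), and they enter the estimate of the spread used here.

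**Figure D4:**
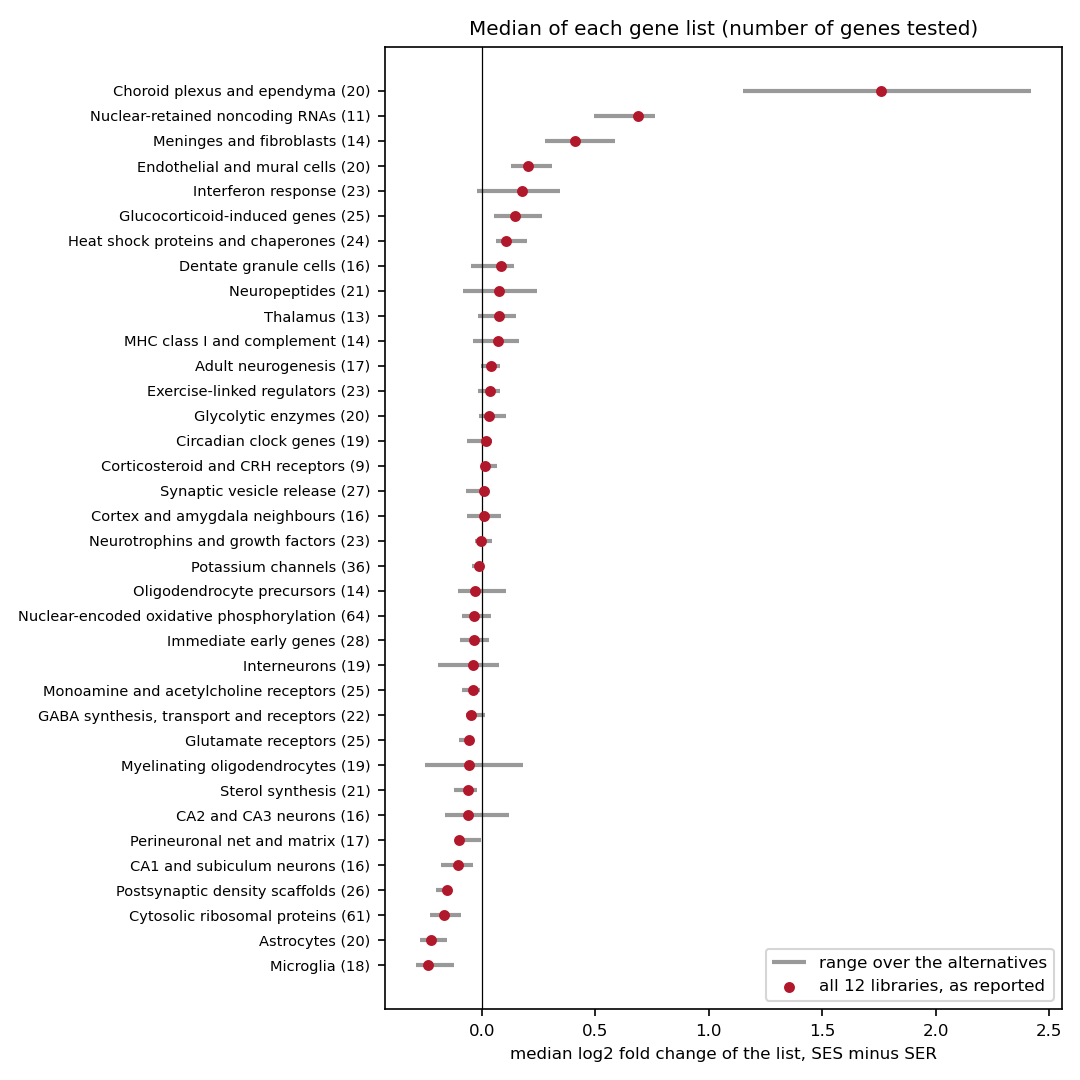
Median log2 fold change, SES minus SER, of the 36 gene lists with at least 5 genes tested (red points; number of genes in parentheses) and the range of that median over the edgeR fits of genes with other scalings, filters or fewer libraries (grey lines). Choroid plexus and ependyma stood highest at 1.76 and microglia lowest at −0.24, and most other lists lay within 0.2 of 0.

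Among stress and immune pathways, interferon response genes had 17 of 23 above 0 with a median of 0.18. Irf7 and the antiviral enzyme gene Rsad2 (1.15 ± 0.53) were the 2 with an unadjusted p under 0.05, both higher in SES, against 1.71% of all genes. Without SES mouse 10, which had the highest Irf7, the median was −0.02. Heat shock proteins and chaperones had 19 of 24 above 0 with a median of 0.11, led by the small heat shock protein Hspb1 (8.25, 9.86 and 4.86 CPM in SES and 4.95, 3.22 and 4.18 in SER; 0.90 ± 0.32), which overlapped between groups and was the only member with an unadjusted p under 0.05. Without SES mouse 12 the median was 0.20 with 6 such members, without SER mouse 6 it was 0.17 with 7, and without SER mouse 20 it was 0.06 with 1. It was 0.08 without SES mouse 10 and 0.12 without SER mouse 19, each with 0 such members. Over all genes 4.92% had such a p without SES mouse 12 and 5.82% without SER mouse 6, against 3.67% as reported. MHC class I and complement genes had a median of 0.07, which was −0.04 without SES mouse 10, with C3 lower and Cd59a, a complement inhibitor, at 1.01 ± 0.48.

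In the deposited tables, 4 genes had no counts in any ineffective responder. Lars2, the mitochondrial leucyl-tRNA synthetase, was set aside with Zc3h7a, Cmss1 and Filip1l because each was listed at 0 in all 3 SER mice. Lars2 had 153581, 74128 and 201495 counts in the SES mice, and the 4 genes together made up 0.501 to 1.51% of the SES totals. For Zc3h7a the SES counts were 383, 413 and 397, for Cmss1 they were 130, 145 and 87, and for Filip1l 63, 49 and 33. Listed at 0 throughout a group, with at least 10 counts in each of the 9 other mice, were these 4 genes for SER and 0 genes for SES, SS or C. What set these zeros was not tested. No source used here names the counting program or its annotation, so whether the SER tables were made in the same way as the 9 others is not known. A difference in how the tables were made could not be told apart from group in any SES minus SER value given here.

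The same pattern at the level of transcripts did not mean absence of the gene. Listed at 0 in SER with at least 10 counts in every other mouse were 7 transcripts, against 2 in C and 0 in SS or SES, and 4 of the 7 belonged to the genes set aside. The other 3 belonged to Pik3cg, Lingo2 and Phyhd1, whose other transcripts had counts in SER. Pik3cg encodes the catalytic subunit gamma of phosphoinositide 3-kinase, which immune cells use. One of its 3 listed transcripts had counts of 89, 57 and 52 in SES mice and of 0, 0 and 0 in SER mice, while in SER the counts sat on another transcript in mouse 6 (52 counts) and on the third in mice 19 and 20 (54 and 65 counts). In a fit of 20413 transcripts, edgeR called this 1 transcript and no other (log2 fold change 8.79, adjusted p = 0.00642, a value that depends on how zeros are treated and is no bound). Summed per gene, Pik3cg had counts of 89, 57 and 52 in SES mice and of 52, 54 and 65 in SER mice, a log2 fold change of −0.23 with an adjusted p of 0.999. The gene totals overlapped, so the call concerned which transcript held the counts.

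**Figure D5:**
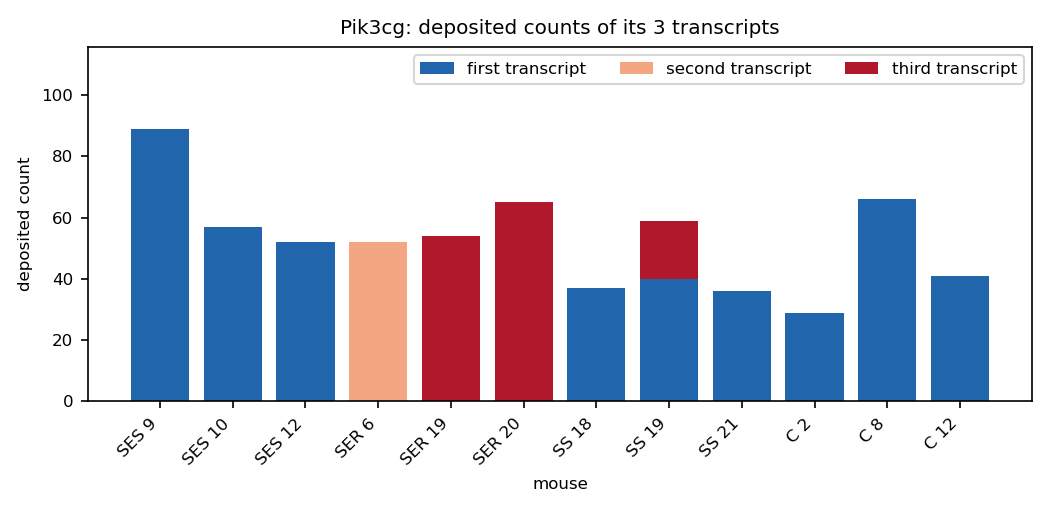
Deposited counts of the 3 listed transcripts of Pik3cg (stacked colours) in each of the 12 mice. The first transcript held all counts in SES and C and none in SER, while the total per mouse was 52 to 89 in SES and 52 to 65 in SER.

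DESeq2's single call, Atp6v0c-ps2, is named for a pseudogene of the proton pump subunit Atp6v0c. It had 71, 119 and 0 counts in SES, 0 in each SER and SS mouse, and 0, 1 and 891 in C mice 2, 8 and 12, so neither SES nor C was uniform. DESeq2 gave an adjusted p of 0.00383 and edgeR 0.999. The parent gene Atp6v0c had counts of 9389, 10166 and 8500 in SES mice and of 6689, 8456 and 5037 in SER mice before scaling, and a log2 fold change of 0.08 after it. Reads of such near-identical copies cannot be placed with certainty.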

How the data were processed

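RNA-seq of 12 mouse ventral hippocampi was used, with SES and SER (3 mice each) compared and C and SS contributing to the estimate of the spread. Per the file headers and the values, the authors deposited 1 table of estimated counts per mouse for 33299 transcripts under 23183 gene symbols, not normalized. All values were whole, so rounding changed none. Per the submitters' processing notes, TopHat and mm10 were used, while the counter, how it treated strand, and the gene annotation were not given in the sources used here. Overlapping and antisense genes may therefore share reads.

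Transcripts were summed per symbol, 4 genes at 0 in every SER mouse were set aside, and filterByExpr (minimum count 10) left 14548 genes. It removed 4612 genes with counts. TMM factors were 0.963 to 1.041. edgeR 4.0.16 in R 4.3.3 fitted all 12 libraries with 8 residual degrees of freedom (biological coefficient of variation 15.7%), with Benjamini-Hochberg adjustment and calls at 0.05. Standard errors and 95% intervals come from the same test. CPM are scaled with the TMM factors. A count of 0 allows up to 3 counts, or 0.192 to 0.33 CPM in the 6 libraries, which covers counting error only. The titles number the mice, and nothing else says how the samples were taken, so p-values measure the spread between these mice. The smallest two-sided p that a permutation of 3 against 3 can give is 0.1, so no such test was run on single genes.

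Named genes were the 12 of smallest p in each direction, the 5 largest in each direction among genes of at least 1 CPM with groups apart and an unadjusted p under 0.05, the 2 of smallest p in each of 37 gene lists, and 16 fixed genes. Predicted genes, microRNAs, small nucleolar RNAs and sex-linked markers were left out. Astrocyte, microglia, scaffold, glucocorticoid, meningeal and nuclear genes beyond the first 2 of a list, and Pik3cg, Lingo2, Phyhd1 and Atp6v0c-ps2, were chosen after their values were seen. Some list members are not reported here. The comparison and lists were chosen with earlier results of these data known. Lists are described by counts and medians without a set test. Scripts were tested on simulated data. Alternatives were DESeq2 1.42.0, limma 3.58.1, other scalings and filters, fewer libraries and transcripts. Gene coordinates, counted from 1, were taken from RefSeq for mm10. No column of values was unused (0).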

Additional observations from a re-analysis of the deposited data

How the results depend on the processing

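The number of genes called was 4 when the 4 set-aside genes were kept, 1 with DESeq2 and 1 on transcripts. It was 0 in each fit without 1 library, in the fit of 6 libraries (smallest adjusted p 0.318), without C mouse 2 and SS mouse 18 (0.255), and under the other scalings and filters. The fits without 1 library left out each SES mouse, each SER mouse and SS mouse 18 in turn. No other SS mouse and no C mouse was left out alone. Genes at an unadjusted p under 0.05, 534 as reported (3.67%), numbered 895 in the fit of 6 libraries (6.3%) and 1124 without C mouse 2 and SS mouse 18 (7.64%). Without 1 library they ranged from 238 to 1033. They moved by over 1.5 times without SER mouse 20 (238, 1.61%), SES mouse 10 (240, 1.63%), SER mouse 6 (858, 5.82%) or SS mouse 18 (1033, 7%). The cause was not tested. Of 1753 values of the 110 named genes under the alternatives, 1740 kept their direction, and 0 genes were called. The 13 others belonged to 6 genes near 0. Without 1 library Egr1 ranged from −0.023 to 0.364, Fkbp5 from −0.021 to 0.235, Bdnf from −0.01 to 0.092, Malat1 from −0.07 to 0.379, Npas4 from −0.267 to 0.234 and Vegfa from −0.09 to 0.08. Npas4 was 0.036 and Vegfa 0 with limma-voom, and Vegfa 0.001 with upper-quartile factors. No scaling moved the median of all genes by more than 0.1, with DESeq2's size factors giving −0.0066. No paired analysis was possible because SES and SER share no mouse number. With 3 mice a group and SES deeper than SER, genes under 1 CPM are the least certain.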

Other observations

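No marker of hippocampal neurons was called between effective and ineffective responders. CA1 and subiculum neurons (16 genes, median −0.11), CA2 and CA3 neurons (16 genes, −0.06), dentate granule cells (16 genes, 0.08) and interneurons (19 genes, −0.04) had 0, 2, 1 and 0 members with an unadjusted p under 0.05, all higher in SES and none called. Over all genes tested, 1.71% were higher at such a p. The CA2 and CA3 members were Map3k15 (1.36 ± 0.60) and Coch (0.76 ± 0.31), and the dentate member was the kinase gene Plk5 (0.69 ± 0.26). Except for CA1 and subiculum, these medians changed sign without 1 library. That of CA2 and CA3 was 0.12 without SES mouse 9 and 0.08 without SER mouse 19, that of dentate granule cells −0.05 without SER mouse 19, and that of interneurons 0.08 without SES mouse 10 and 0.003 without SER mouse 19. Myelin genes varied more between mice than between groups, with sums of 6660, 8269 and 5240 CPM in SES and 9109, 5088 and 6619 in SER, and a median of −0.06 that was −0.25 without SER mouse 19, 0.18 without SER mouse 6 and 0.11 without SES mouse 12. Oligodendrocyte precursor markers had a median of −0.03 over 14 genes, which was 0.08 without SER mouse 6 and 0.11 without SES mouse 12. Thalamic markers (13 genes, 0.08) and those of cortex and amygdala (16 genes, 0.01), which tell of tissue around the dissection, stood near 0 and lay below it without SES mouse 9 (−0.02 and −0.07), and for cortex and amygdala also without SES mouse 10 (−0.01), although Rasgrf2 (0.34 ± 0.12) and Lamp5 (0.65 ± 0.29) of the latter had an unadjusted p under 0.05. Of 12 blood cell genes 1, the haemoglobin gene Hba-a1, had enough counts to be tested (0.83 ± 0.92).

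Receptor, channel and metabolic lists had medians between −0.10 and 0.08. Glutamate receptors (25 genes, median −0.06), GABA genes (22, −0.05), monoamine and acetylcholine receptors (25, −0.04), synaptic vesicle genes (27, 0.01), potassium channels (36, −0.01) and the perineuronal net and its matrix (17, −0.10) had 0, 1, 0, 0, 4 and 0 members with an unadjusted p under 0.05. Over all genes tested the share was 3.67%. The GABA member was the receptor subunit gene Gabra2 (−0.26 ± 0.09). Of the potassium channel members 2 were higher and 2 lower in SES, and Kcnma1, of the large-conductance channel, had the smallest p (−0.44 ± 0.15). Adult neurogenesis genes (17, 0.04) had 1, the transcription factor gene Sox4 (−0.27 ± 0.12), and neuropeptides (21, 0.08) had 1, Cartpt (0.74 ± 0.31). Nuclear-encoded oxidative phosphorylation genes (64, −0.03), sterol synthesis genes (21, −0.06) and circadian clock genes (19, 0.02) had 0. Of 20 glycolytic genes (median 0.03), the glucose transporter gene Slc2a1 had 0.51 ± 0.19 and Aldoc −0.25 ± 0.10. Leaving out 1 library changed the sign of the medians of GABA, vesicle, neurogenesis, neuropeptide, oxidative phosphorylation, clock and glycolytic genes, which then lay between −0.083 and 0.04 (neuropeptides without SES mouse 9, oxidative phosphorylation without SER mouse 19). None of these genes was called by edgeR, whose smallest adjusted p over all genes was 0.999.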
